A study of Mus musculus with 8 samples.

Results

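The endoplasmic reticulum (ER) stress genes of the mouse retina were examined as a list of 10: the chaperones Hspa5, Hsp90b1 and Dnajb9, the sensors Atf6, Eif2ak3 and Ern1, and the targets Xbp1, Herpud1, Ddit3 and Trib3. They were taken by gene symbol from a list drawn up with earlier results of these data known; the rule itself uses no measured value. All 10 were found among the 26824 genes of the deposited table, and all 10 were among the 20167 that passed the filter on low counts. RNA was sequenced from retinas of untreated mice aged 1 month, with 2 retinas pooled for each library. The groups were 3 libraries of wild-type mice (WT 1 to WT 3) and 5 libraries labelled Kv8.2 KO (KO 2 to KO 6). Kv8.2, the product of Kcnv2, is a potassium channel subunit of photoreceptors that conducts only together with other Kv subunits. The knockout allele, the strain and the sex of the mice are not given in the sources used here, and sex is read below from Ddx3y and Xist.

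Proteins of the secretory pathway fold in the ER, where chaperones hold them until they are complete. When unfolded protein builds up, sensors in the ER membrane start the unfolded protein response, which raises chaperone and degradation genes and slows translation. Photoreceptors are a well-known setting for this response because they make large amounts of membrane protein through the ER.

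Of the 10 ER stress genes, 1 was called in the libraries labelled KO against WT: Eif2ak3, which encodes the sensor PERK, rose 1.24-fold, a call that ended when any 1 of 6 libraries was left out. Calls required an adjusted p under 0.05 over the whole table, and 7.58% of all tested genes met this (4.74% higher and 2.84% lower). With scaling by library size alone, 41.8% of the calls over all genes were higher, against 62.5%, and Eif2ak3 was not called. The other 9 did not pass in the main edgeR fit, which used all libraries and no correction for GC content or length. DESeq2 called 3 of the 10, where 18.0% of genes with an adjusted p-value were called. Limma voom called 8 of the 10, where 40.9% of tested genes were called. Hspa5, Herpud1 and Xbp1 had the next smallest p-values in the main edgeR fit, with fitted levels 1.31, 1.29 and 1.25 times those of WT, none of them called in it. The median log2 fold change of the 10 genes was 0.20, against 0.00 over all tested genes, and 8 of the 10 had a value above 0, as did 50.1% of all tested genes. In 3 of the 10 the groups did not overlap, with Eif2ak3 and Xbp1 higher and Dnajb9 lower in every library labelled KO, and 20.9% of all tested genes showed such a gap (10.8% higher and 10.1% lower).

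The letters known to respond to this pathway were searched first, to show which members carry them beside their start sites. RefSeq promoters (build GRCm38.p6, 250 bases before to 50 after a gene's start) were at hand for 9 of the 10 genes. Both strands were searched for the ER stress response element ERSE (CCAAT and CCACG with 9 bases of any kind between), for ERSE-II (ATTGG and CCACG with 1 base between), for the unfolded protein response element UPRE (TGACGTGG), and for the CARE element bound by ATF4 dimers (TGATGNAAT). ERSE is the element that cleaved ATF6 binds together with the factor NF-Y. The letters CCACG are shared by ERSE and ERSE-II. Hspa5 and Hsp90b1 held ERSE, which 0.119% of all 32851 promoters of this length held, and Herpud1 held ERSE-II, which 0.0365% held. UPRE (0.676% of promoters) and CARE (0.965%) were found in none of the 9. The 3 promoters with a match are printed 5′ to 3′ along the gene's strand, with the fixed letters of each match in capitals.
Hspa5, chr2:34771840-34772139, plus strand: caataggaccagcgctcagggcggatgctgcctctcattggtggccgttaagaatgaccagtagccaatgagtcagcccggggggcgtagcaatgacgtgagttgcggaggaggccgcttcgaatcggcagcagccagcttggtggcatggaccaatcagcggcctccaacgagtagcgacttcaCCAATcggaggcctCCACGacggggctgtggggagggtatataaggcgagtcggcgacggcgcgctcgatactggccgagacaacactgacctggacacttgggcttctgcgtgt
Hsp90b1, chr10:86705395-86705694, minus strand: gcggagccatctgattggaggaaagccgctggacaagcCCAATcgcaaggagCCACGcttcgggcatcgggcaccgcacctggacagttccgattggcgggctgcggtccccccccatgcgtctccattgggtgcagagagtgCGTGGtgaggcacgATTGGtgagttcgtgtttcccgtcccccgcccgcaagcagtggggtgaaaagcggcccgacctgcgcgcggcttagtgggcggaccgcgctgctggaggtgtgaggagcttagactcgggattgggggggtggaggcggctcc
Herpud1, chr8:94386179-94386478, plus strand: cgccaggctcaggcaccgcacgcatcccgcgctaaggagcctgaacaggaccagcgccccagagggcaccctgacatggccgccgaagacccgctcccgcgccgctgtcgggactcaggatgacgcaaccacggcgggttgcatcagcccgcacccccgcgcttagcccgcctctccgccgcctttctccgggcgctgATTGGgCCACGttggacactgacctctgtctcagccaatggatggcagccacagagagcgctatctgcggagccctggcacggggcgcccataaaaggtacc
Counted from the RefSeq start, the match of Hspa5 spanned positions -65 to -47 and that of Herpud1 -52 to -42. Hsp90b1 held 2 ERSE matches, 1 on each strand, and the first spanned -212 to -194. None of these 3 genes was called in the main edgeR fit with all libraries, while other tools and settings called some of them, as given below. Among all 24 tested genes with ERSE in a promoter, 1 rose, 2 fell and the median log2 fold change was 0.00. Over all tested genes, 4.74% rose and 2.84% fell. Of 10 tested genes with ERSE-II, 1 rose, 0 fell and the median was 0.12. Of 123 with UPRE, 9 rose and 3 fell (median 0.02), and of 73 with CARE, 2 rose and 2 fell (median 0.02).

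The libraries held 17759146 to 25188870 counts. Levels are given in CPM, which scales a gene's counts to a library of 1000000. Kcnv2, the targeted gene, was detected everywhere: WT 1 to WT 3 had 519, 551 and 526 CPM, and KO 2 to KO 6 had 585, 447, 398, 409 and 409 CPM. It was not called (edgeR adjusted p-value 0.275), but it was called lower without KO 2 (0.0298), with voom (0.00116) and in KO 4 to KO 6 against WT (log2 fold change -0.38, adjusted p-value 0.000116). KO 2 lay above all WT libraries, and the groups are named here by their labels. On the first principal component, KO 4 to KO 6 scored 45.7 to 58.1 and the other 5 libraries -40.2 to -11.9. On the second, KO 2 and KO 3 scored -54.5 and -31.7, and no other library was below 0.0636. WT 3 held 2132 counts of the Y-linked gene Ddx3y, and each other library 1 to 3. Xist, an RNA of female cells, had 9 counts in WT 3 and 30144 to 59443 in the others. By Ddx3y and Xist, WT 3 was male and the other libraries female, so sex was not balanced between the groups. The part of sex in the values was not tested. The 10 lens markers summed to 42900 CPM in KO 3 and to at most 1220 CPM in any other library. As a check of the tissue, the 8 cone markers summed to 945 to 1430 CPM and the 6 bipolar cell markers to 1020 to 1260 CPM, with no listed marker of either at 0. Because of these differences, the results for the ER stress genes are also given for KO 2 and KO 3 against WT and for KO 4 to KO 6 against WT, which share the WT libraries. Both subsets were formed from differences seen in these same counts, so their p-values give no independent support. In KO 4 to KO 6 against WT, 42.8% of all tested genes were called, and in KO 2 and KO 3 against WT 0.891%. KO 4 to KO 6 hold no WT library beside them, so what sets them apart and the label cannot be told apart.

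In WT retina Hsp90b1 and Hspa5 had the highest levels of the list per length of transcript. Divided by the kilobases of the longest annotated transcript, the WT level was 116 ± 6.34 CPM per kilobase for Hsp90b1 and 55.8 ± 6.89 for Hspa5 (SD, n = 3). Ddit3 followed at 44.3 ± 3.56, Xbp1 at 25.9 ± 3.01 and Herpud1 at 22.6 ± 2.09 CPM per kilobase. Below these lay Atf6 at 16.1 ± 0.868, Dnajb9 at 14.7 ± 1.45, Eif2ak3 at 8.81 ± 0.617, Ern1 at 6.03 ± 0.295 and Trib3 at 2.70 ± 0.197. The ranges of the mean ± 1 SD overlapped for Xbp1 and Herpud1 and for Atf6 and Dnajb9, and for no other neighbours in this order. The order was the same in the libraries labelled KO, where the mean ran from 133 ± 16.1 CPM per kilobase for Hsp90b1 to 2.19 ± 0.362 for Trib3 (SD, n = 5), and there the ranges overlapped for Xbp1 and Herpud1 and for Dnajb9 (12.0 ± 1.33) and Eif2ak3 (11.0 ± 0.542).

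**Figure D1:**
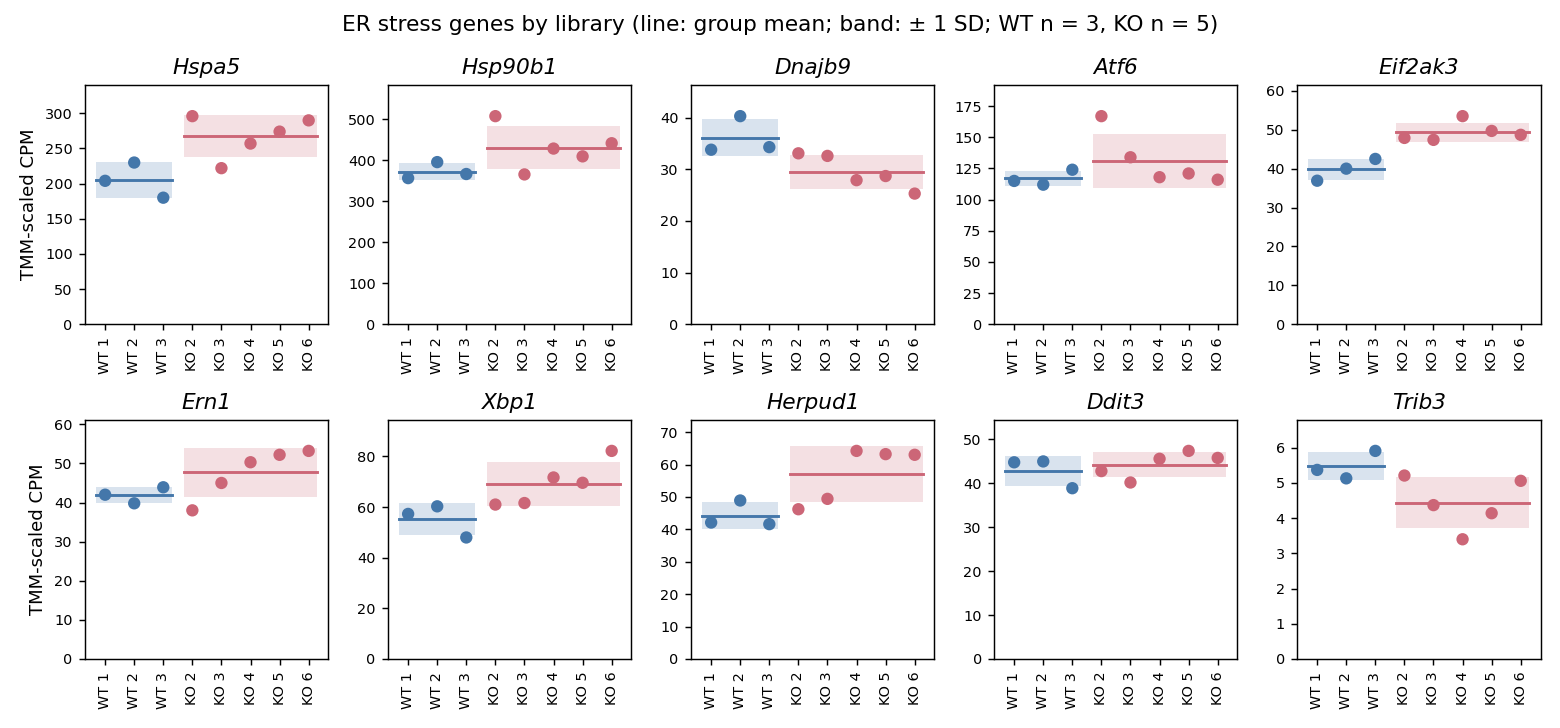
Level of each ER stress gene in each library, in TMM-scaled CPM on axes that start at 0; points are libraries, lines are group means and bands ± 1 SD (WT n = 3, KO n = 5). Eif2ak3 lies at 36.9 to 42.5 CPM in WT and at 47.4 to 53.5 CPM in the libraries labelled KO, while Ddit3 overlaps throughout.

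Among the chaperones, Hspa5 encodes BiP, the main Hsp70 of the ER lumen, which binds the sensors and keeps them inactive until unfolded protein draws it away. WT 1 to WT 3 had 204, 230 and 180 CPM, and KO 2 to KO 6 had 296, 222, 257, 274 and 290 CPM. Of the libraries labelled KO, 4 lay above all WT libraries, and KO 3 lay below WT 2. Its log2 fold change of 0.39 (SE 0.13) was not called (edgeR adjusted p-value 0.0789). The value was 0.34 in KO 2 and KO 3 against WT (adjusted p-value 0.281, not called) and 0.43 in KO 4 to KO 6 against WT (adjusted p-value 0.00108, called). With offsets for GC content per library, where 7.22% of tested genes were called (4.17% higher and 3.05% lower), Hspa5 was the 1 member that passed, at 0.48 (adjusted p-value 0.0474).

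Hsp90b1 encodes GRP94, the Hsp90 of the ER, which completes the folding of a selected set of secreted and membrane proteins. It stood at 356, 395 and 366 CPM in WT, and at 507, 365, 428, 409 and 441 CPM in KO 2 to KO 6. KO 2 was the highest library and KO 3 lay among WT, so the groups overlapped. Its difference, 0.21 on the log2 scale (SE 0.12), did not pass (edgeR adjusted p-value 0.283). It was 0.23 in KO 2 and KO 3 against WT (adjusted p-value 0.456) and 0.20 in KO 4 to KO 6 (adjusted p-value 0.0138), of which the second was called. A share of 12.3% of its 31-base words also occurs in transcripts of other genes, so part of its count may be divided differently between them. Exons of Hsp90b1 also overlap those of 1810014B01Rik on the opposite strand and of Gm15344 and Gm25745 on the same strand.

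Dnajb9 encodes ERdj4, a co-chaperone that supports BiP and the disposal of misfolded protein. WT 1 to WT 3 had 33.8, 40.3 and 34.3 CPM, and KO 2 to KO 6 had 33.1, 32.6, 27.9, 28.7 and 25.3 CPM. Every library labelled KO lay below every WT library, and WT 1 and KO 2 lay closest. On the log2 scale the difference was -0.29 (SE 0.11), of opposite sign to Hspa5 and Hsp90b1, and it did not pass (edgeR adjusted p-value 0.129). It was -0.14 in KO 2 and KO 3 (adjusted p-value 0.540, not called) and -0.39 in KO 4 to KO 6 (adjusted p-value 0.00262, called). With offsets for GC content, the log2 fold change of Dnajb9 was -0.04. Its longest transcript, at 40.6% GC, had the lowest GC content of the 10, and fold changes followed GC content over all genes with an annotated transcript (Spearman's rho 0.459 over 18028 genes, not independent of one another). Of the 31-base words of Dnajb9, 10.8% occur in transcripts of other genes, and its exons overlap Mir5627 on the opposite strand.

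The sensors sit in the ER membrane with a domain in its lumen. Eif2ak3 encodes PERK, a kinase that phosphorylates the initiation factor eIF2 alpha and so slows translation. WT 1 to WT 3 had 36.9, 40.0 and 42.5 CPM, while KO 2 to KO 6 had 47.9, 47.4, 53.5, 49.7 and 48.7 CPM. All 5 libraries labelled KO lay above all 3 WT libraries. The gene lies at chr6:70844515-70905245 on the plus strand (GRCm38, GENCODE M21). WT averaged 39.8 ± 2.78 CPM (SD, n = 3), the libraries labelled KO averaged 49.4 ± 2.45 CPM (SD, n = 5), and the log2 fold change was 0.31 (SE 0.08, edgeR adjusted p-value 0.0443). Without KO 2 or without KO 3 the call held (adjusted p-values 0.0346 and 0.0220). The call ended without any 1 of the other libraries, with adjusted p-values of 0.202, 0.164 and 0.108 without WT 1, WT 2 and WT 3, and of 0.109, 0.102 and 0.0835 without KO 4, KO 5 and KO 6. It was called in KO 4 to KO 6 against WT (log2 fold change 0.36, adjusted p-value 0.00186) and not in KO 2 and KO 3 against WT (0.26, adjusted p-value 0.214). With offsets for GC content it was not called (0.22, adjusted p-value 0.0806), nor with library size alone (0.0886), with no filter on low counts (0.0633) or with offsets for transcript length (0.0558). Of the 32 alternative fits run, 10 called Eif2ak3, with adjusted p-values from 0.00155 to 0.72 over all 32. An antisense gene, Gm43292, overlaps its exons, and strand-specific counting is not stated. Of the 31-base words of Eif2ak3, 6.78% also occur in transcripts of other genes.

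Atf6 encodes the sensor that is carried to the Golgi and cleaved there into a transcription factor. WT 1 to WT 3 had 115, 112 and 124 CPM, and KO 2 to KO 6 had 167, 134, 118, 121 and 116 CPM. KO 2 and KO 3 lay above WT, and KO 4 to KO 6 lay within the WT range. Over all libraries it differed by 0.17 on the log2 scale (SE 0.13, edgeR adjusted p-value 0.423), with 0.36 in KO 2 and KO 3 (adjusted p-value 0.165) and 0.03 in KO 4 to KO 6 (adjusted p-value 0.753), neither of them called. Leaving out KO 2 alone moved Atf6 to 0.06 (edgeR adjusted p-value 0.606), and limma voom on all libraries gave 0.05 (adjusted p-value 0.614).

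Ern1 encodes IRE1 alpha, which cuts the Xbp1 transcript so that it can be spliced to its active form. WT retinas had 42.0, 39.8 and 43.9 CPM, against 38.0, 45.0, 50.3, 52.2 and 53.2 CPM in KO 2 to KO 6. KO 2 was the lowest of all 8 libraries, and the other libraries labelled KO were above WT. Its log2 fold change of 0.19 (SE 0.11) did not pass (edgeR adjusted p-value 0.310), and it was -0.01 in KO 2 and KO 3 against WT (adjusted p-value 0.965). In KO 4 to KO 6 against WT it was 0.32 and called (adjusted p-value 0.00204). Atf6 and Ern1 thus were high in different libraries: Atf6 was highest in KO 2, where Ern1 was lowest.

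**Figure D2:**
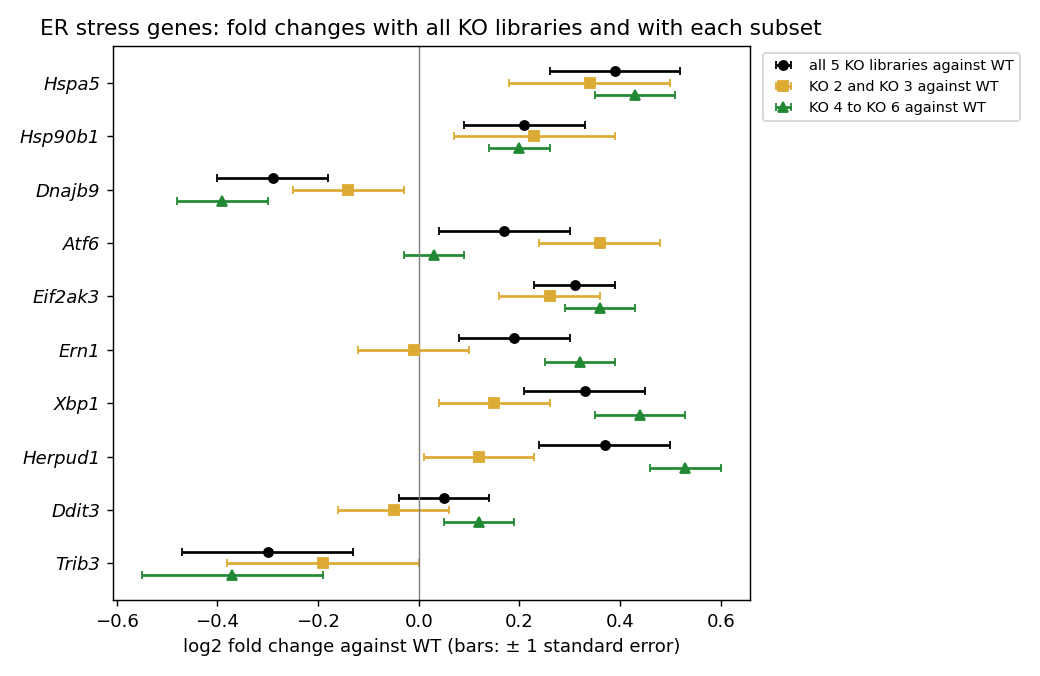
Log2 fold change against WT of each ER stress gene (x axis, bars ± 1 standard error) with all 5 libraries labelled KO (circles), with KO 2 and KO 3 (squares) and with KO 4 to KO 6 (triangles). Herpud1 is at 0.12 with KO 2 and KO 3 and at 0.53 with KO 4 to KO 6, while Atf6 is at 0.36 and 0.03; the same 3 WT libraries enter every value.

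Among the targets, Xbp1 encodes the transcription factor made after IRE1 splicing. The counts are per gene, so spliced and unspliced Xbp1 were not separated. WT retinas had 57.3, 60.3 and 48.0 CPM, against 61.0, 61.6, 71.7, 69.6 and 82.2 CPM in KO 2 to KO 6. Every library labelled KO was above every WT library, with KO 2 and KO 3 close to WT 2. Xbp1 was not called, at a log2 fold change of 0.33 (SE 0.12, edgeR adjusted p-value 0.103). It was 0.15 in KO 2 and KO 3 (adjusted p-value 0.493) and 0.44 in KO 4 to KO 6 (adjusted p-value 0.00181), of which the second was called.

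Herpud1 encodes a membrane protein of the ER-associated degradation complex. WT retinas had 42.1, 48.9 and 41.6 CPM, against 46.2, 49.4, 64.2, 63.2 and 63.0 CPM in KO 2 to KO 6. KO 4 to KO 6 lay close together and above all other libraries, and KO 2 and KO 3 lay beside WT 2. Over all libraries the log2 fold change was 0.37 (SE 0.13, edgeR adjusted p-value 0.0942, not called). It was 0.53 in KO 4 to KO 6 (adjusted p-value 0.000111, called), the largest of the 10 genes in that comparison, and 0.12 in KO 2 and KO 3 (adjusted p-value 0.595).

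Ddit3 encodes CHOP, a transcription factor of the PERK branch that is tied to cell death under lasting ER stress. WT retinas had 44.8, 45.0 and 38.9 CPM, against 42.8, 40.2, 45.6, 47.4 and 45.8 CPM in KO 2 to KO 6. The groups overlapped, and the means were 42.9 ± 3.45 CPM (SD, n = 3) and 44.3 ± 2.85 CPM (SD, n = 5). Ddit3 had a log2 fold change of 0.05 (SE 0.09, edgeR adjusted p-value 0.766). Ddit3 shares exonic positions with Mars and Gm4189 on the opposite strand and with a second annotated gene of the same symbol on its own strand, and 6.78% of its 31-base words occur in transcripts of other genes, so its count may be divided between these or hold their reads.

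Trib3 encodes a pseudokinase that CHOP and ATF4 induce. It was the scarcest of the 10, at 5.37, 5.13 and 5.91 CPM in WT and at 5.21, 4.37, 3.40, 4.14 and 5.06 CPM in KO 2 to KO 6, from 69 to 133 counts per library. KO 2 lay above WT 2, and the other libraries labelled KO lay below all WT libraries. Its log2 fold change of -0.30 (SE 0.17) was not called (edgeR adjusted p-value 0.285). Ddit3 and Trib3, both targets of the PERK branch, thus gave no call in edgeR with all libraries. Ddit3 was at -0.05 in KO 2 and KO 3 (adjusted p-value 0.843) and at 0.12 in KO 4 to KO 6 (adjusted p-value 0.214). Trib3 was at -0.19 (adjusted p-value 0.631) and -0.37 (adjusted p-value 0.117) in the same comparisons.

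The number of ER stress genes called moved with the libraries used. The study's own comparison left out 2 of the KO samples after an exploratory look at the data, and which ones is not given in the sources used here. Of the 10 ways to leave out 2 libraries labelled KO, the one without KO 2 and KO 3 called 7 ER stress genes, and each of the others called 0 to 2. In KO 4 to KO 6 against WT, 7 of the 10 were called, 6 higher and Dnajb9 lower, where 42.8% of all tested genes were called (22.3% higher and 20.5% lower). In KO 2 and KO 3 against WT, edgeR called 0 of the 10, where 0.891% of all tested genes were called, and 2 had an unadjusted p-value under 0.05, as did 19.0% of all tested genes; no other tool was run on these 5 libraries. The median log2 fold change of the 10 genes was 0.26 in the first comparison and 0.13 in the second, beside 0.01 and 0.00 over all tested genes. Offsets for GC content moved other members as well, with none of them called: Herpud1 to 0.22, Xbp1 to 0.18, Ern1 to 0.11, Hsp90b1 to 0.42, Ddit3 to 0.13 and Trib3 to -0.53. With DESeq2's Wald test on all libraries, Hspa5, Eif2ak3 and Herpud1 were called higher, where 18.0% of genes with an adjusted p-value were called (11.3% higher). With limma voom and library quality weights, 8 were called, all but Atf6 and Ddit3, where 40.9% of tested genes were.

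Other genes of the unfolded protein response were read in 4 lists, chosen like the members with earlier results of these data known. Of 50 genes, 49 were tested and 10 were called, 8 higher and 2 lower. That is 20.4% of the tested genes of these lists, against 7.58% of all tested genes, and the median log2 fold change was 0.19. With offsets for GC content, 5 of the 49 were called (10.2%), against 7.22% of all tested genes, and the median was 0.14. In KO 2 and KO 3 against WT, edgeR called 0 of the 49, where 0.891% of all tested genes were called. Of the 49, 14 had an unadjusted p-value under 0.05, as did 19.0% of all tested genes. In KO 4 to KO 6 against WT, 31 were called, where 42.8% of all tested genes were.

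The ER chaperones and folding enzymes held 5 of these 10 calls. Of 16 tested, 4 rose and 1 fell, where 4.74% of all tested genes rose and 2.84% fell, and the median log2 fold change was 0.32. With offsets for GC content, 3 rose, where 4.17% of all tested genes did, and the median was 0.17. In KO 2 and KO 3 against WT, edgeR called 0 of the 16, where 0.891% of all tested genes were called. Of the 16, 7 had an unadjusted p-value under 0.05, as did 19.0% of all tested genes. Pdia6, a protein disulfide isomerase, had 63.3, 62.3 and 63.2 CPM in WT, against 87.4, 82.8, 92.7, 91.3 and 99.9 CPM in KO 2 to KO 6. All libraries labelled KO lay well above WT, and its log2 fold change was 0.53 (SE 0.08, edgeR adjusted p-value 0.0073). Hyou1, a large Hsp70-like chaperone that acts with BiP, rose: WT ranged from 66.0 to 67.6 CPM and the libraries labelled KO from 74.8 to 115 CPM (log2 fold change 0.61, SE 0.13, edgeR adjusted p-value 0.0254). Its lowest library labelled KO was KO 3. Sdf2l1, a subunit of an ER chaperone complex, rose from 3.68 ± 0.269 CPM (SD, n = 3) to 6.48 ± 1.21 CPM (SD, n = 5), a log2 fold change of 0.82 (SE 0.19, edgeR adjusted p-value 0.0318). Txndc5, another disulfide isomerase and the fifth call of this list, was named after its values were seen and had a log2 fold change of 0.30 (SE 0.08). Ero1a, the oxidase that recharges the disulfide isomerases, fell from 56.5 ± 1.85 CPM (SD, n = 3) to 39.9 ± 6.51 CPM (SD, n = 5), a log2 fold change of -0.50 (SE 0.12, edgeR adjusted p-value 0.0370). Pdia6 lost its call without WT 1 or WT 2 (adjusted p-values 0.0547 and 0.0562). Hyou1, Sdf2l1, Txndc5 and Ero1a were each called in 2 of the 8 fits that left out 1 library, those without KO 2 and without KO 3, and their adjusted p-values reached 0.120 (Hyou1), 0.131 (Sdf2l1) and 0.159 (Ero1a) without WT 2 and 0.165 (Txndc5) without WT 1. With GC offsets Sdf2l1, Txndc5 and Ero1a were not called (adjusted p-values 0.0673, 0.128 and 0.0569), with Txndc5 at 0.17, and Txndc5 was also not called with library size alone (0.0858) or with no filter (0.0562). Canx, a lectin chaperone named after its values were seen, was called with GC offsets.

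**Figure D3:**
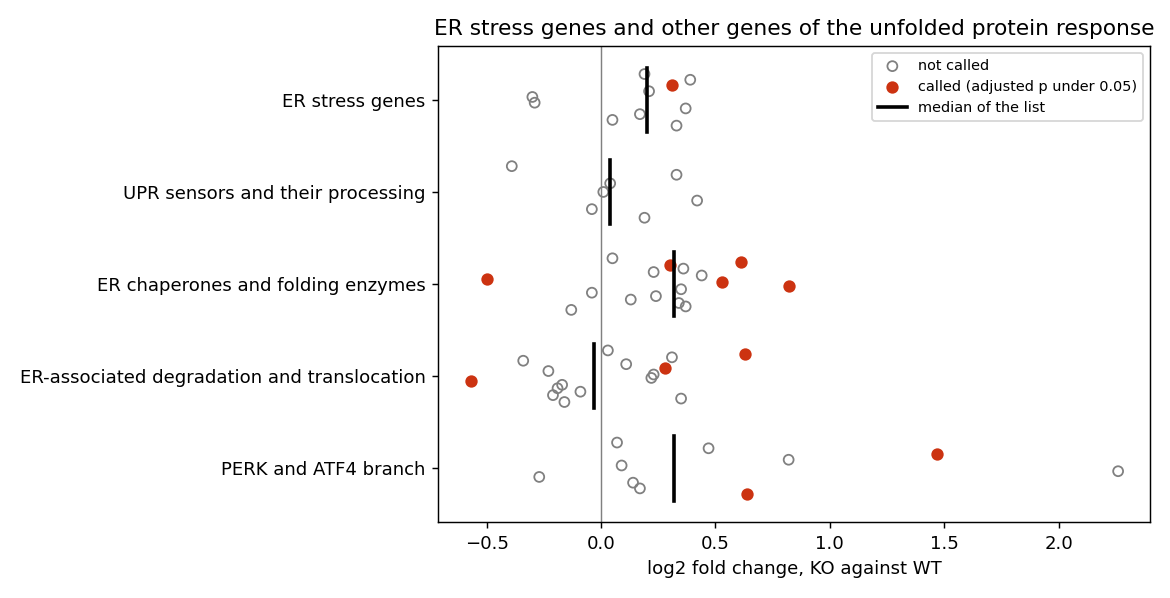
Log2 fold change, KO against WT over all 8 libraries (x axis), of the ER stress genes and of 4 lists of other genes of the unfolded protein response; each point is a gene, filled where called, and bars are list medians. The chaperone list has 5 filled points and a median of 0.32; the open point at 2.26 is Nupr1, named after its values were seen, which was at 162 CPM in KO 3 and at 7.02 to 10.9 CPM in the other libraries.

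Of 16 tested genes of ER-associated degradation and translocation, 2 rose and 1 fell (18.8% called, against 7.58% of all tested genes). Their log2 fold changes lay above 0 in 8 of 16, as did 50.1% over all tested genes, with a median of -0.03. Os9, a lectin that hands misfolded glycoproteins to degradation, had 96.1, 93.0 and 96.2 CPM in WT, against 163, 96.0, 152, 165 and 158 CPM in KO 2 to KO 6. KO 3 lay within WT and the other 4 lay far above, for a log2 fold change of 0.63 (SE 0.16, edgeR adjusted p-value 0.0443). Sec61a1, the pore of the translocon, rose by 0.28 (SE 0.08, edgeR adjusted p-value 0.0494). Edem2, which trims mannose from misfolded glycoproteins, fell from 41.1 ± 1.55 CPM (SD, n = 3) to 27.7 ± 4.52 CPM (SD, n = 5), a log2 fold change of -0.57 (SE 0.14, edgeR adjusted p-value 0.0356). It was lowest in KO 2, at 19.7 CPM. These 3 genes kept their calls without KO 2 and without KO 3, and each lost its call without any 1 of the other 6 libraries, with adjusted p-values up to 0.172 (Os9), 0.203 (Sec61a1) and 0.158 (Edem2) without WT 2. With GC offsets Edem2 was called (adjusted p-value 0.0114), and Os9 and Sec61a1, at 0.39 and 0.12, were not. With library size alone none of the 3 was called (adjusted p-values 0.0502 for Edem2, 0.0583 for Os9 and 0.115 for Sec61a1), and with no filter on low counts Os9 (0.0532) and Sec61a1 (0.0667) were not.

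In the list of the PERK and ATF4 branch, 2 of 10 tested genes rose and 0 fell, where 4.74% of all tested genes rose and 2.84% fell. Atf3, an early stress transcription factor, was at 3.02, 4.47 and 2.66 CPM in WT and at 7.77, 6.23, 12.6, 10.1 and 10.2 CPM in KO 2 to KO 6. All libraries labelled KO were above WT, and KO 4 to KO 6 were highest (log2 fold change 1.47, SE 0.26, edgeR adjusted p-value 0.0140). Atf3 lost its call without WT 1 or WT 3 (adjusted p-values 0.0861 and 0.0771). Sesn2, a sestrin that restrains mTORC1 under nutrient and oxidative stress, rose from 15.3 ± 1.08 CPM (SD, n = 3) to 23.8 ± 4.70 CPM (SD, n = 5), a log2 fold change of 0.64 (SE 0.17, edgeR adjusted p-value 0.0458). It was called only without KO 2 or KO 3 among the fits that left out 1 library, and its adjusted p-value was 0.164 without WT 2. Sesn2 was not called with GC offsets (0.37, adjusted p-value 0.0622), with library size alone (0.0727) or with no filter on low counts (0.0531). Atf3 and Sesn2 are also induced by signals other than ER stress. The list's other genes, which include Atf4 itself (log2 fold change 0.07, SE 0.16), did not pass in edgeR with all libraries. Limma voom also called Cebpb and Ddit4 higher and Cebpg lower, where 40.9% of all tested genes were called.

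Of the other sensors and the proteins that process them, 0 of 7 tested genes were called with edgeR, against 7.58% of all tested genes. Of the 7, 2 had an unadjusted p-value under 0.05, as did 27.3% of all tested genes. DESeq2 called 0 of the 7, where 18.0% of genes with an adjusted p-value were called, and voom 3, where 40.9% of tested genes were. Those with the smallest p-values were Atf6b, the paralog of Atf6 (log2 fold change 0.33, SE 0.14, adjusted p-value 0.168), and Eif2s1, the eIF2 alpha subunit that PERK phosphorylates (-0.39, SE 0.17, adjusted p-value 0.180). For Eif2s1, WT ranged from 44.7 to 51.9 CPM, KO 2 had 42.2 and KO 3 had 49.5 CPM, and KO 4 to KO 6 ranged from 28.7 to 32.9 CPM. Of the 8 fits that left out 1 library, only the one without KO 3 called Atf6b or Eif2s1, and it called both (adjusted p-values 0.0441 and 0.0259). Without WT 2 their adjusted p-values were 0.360 and 0.433. Atf6b was at 0.21 without KO 6, which had 104 CPM against 61.5 to 80.0 CPM in the other libraries labelled KO. With GC offsets Atf6b and Eif2s1 were at 0.05 and -0.16.

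**Figure D4:**
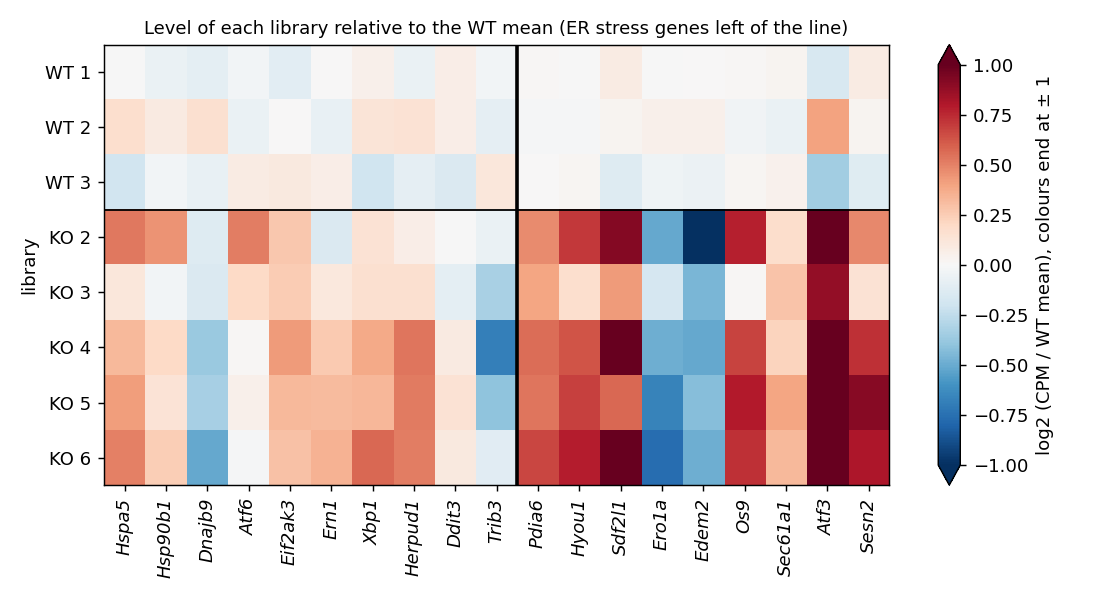
Log2 ratio of each library's CPM to the WT mean (colour) for the 10 ER stress genes, left of the line, and for 9 genes of the other lists, right of it, which were picked because they were called over these libraries. Pdia6 and Atf3 are above WT in all 5 libraries labelled KO, while Atf6 is above WT mainly in KO 2.

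Other measures differed between the groups in the same libraries. WT had a mitochondrial share of counts of 7.53% ± 0.417 (SD, n = 3), the libraries labelled KO had 4.41% ± 1.44 (SD, n = 5), and a two-sided exact permutation test gave p = 0.0357, the smallest that 56 arrangements allow. KO 4 to KO 6, in which Xbp1, Ern1, Eif2ak3, Herpud1 and Ddit3 were highest, had the lowest shares, 3.03% to 3.70%. KO 2, in which Hspa5, Hsp90b1 and Atf6 were highest, had the highest share of the libraries labelled KO, 6.52%. The 8 Muller glia markers, 2 of them called higher, summed to 4490 to 4680 CPM in WT and to 4760 to 6860 CPM in the libraries labelled KO. The 8 microglia markers, 2 called higher, summed to 52.8 to 57.8 CPM and 61.5 to 82.1 CPM, and the 6 markers of endothelium and pericytes, 1 called higher, to 109 to 125 CPM and 133 to 147 CPM. All 3 sums were lowest in WT with no overlap, and no listed marker of the 3 was at 0. Cone markers, 1 called higher and 2 lower, overlapped between the groups, as did plasma cell markers, of which 3 of 5 were in the table, at 11.3 to 14.1 and 10.4 to 18.0 CPM. The sums of rod, bipolar, amacrine and horizontal, ganglion cell, pigment epithelium, lens and red blood cell markers overlapped as well. Of single tested genes, 20.9% had groups that did not overlap. The part of RNA quality, glia, microglia and vessel cells in the values of the ER stress genes was not tested. In whole retina, more cells of a type and more RNA per cell cannot be told apart.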

How the data were processed

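The authors deposited whole-number counts per gene for 8 libraries, per the file headers under Ensembl identifiers. The submitters' processing notes name Trim Galore, Salmon 1.10.2, DESeq2 and build GRCm38, with no role stated. Salmon gives estimates, so the counts may be rounded sums. Genes under 16 counts in total are absent. Strand-specific counting is not given in the sources used here.

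Counts were scaled by TMM and filtered with filterByExpr in edgeR 4.0.16 (R 4.3.3). All 3 WT and 5 KO libraries entered glmQLFit and glmQLFTest with no covariate, since the 2 KO samples that the series text leaves out are not named. P-values were adjusted by Benjamini-Hochberg over 20167 genes and called under 0.05. Every adjusted p-value printed is from edgeR unless DESeq2 1.42.0 or limma 3.58.1 is named. Standard errors were derived by dividing the absolute log2 fold change by the square root of F. Single values used a two-sided exact permutation test (scipy 1.17.1). GC content, length, shared 31-base words and exon overlaps are from GENCODE M21 transcripts. The edgeR steps were tested on simulated data with 2-fold changes in 200 genes, of which 173 were called, with 11 other genes called. The members' fitted changes were smaller, so this does not show how often changes of their size are found.

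Members and lists were chosen with earlier results of these data known. The named genes are Kcnv2, all members and, from each other list, up to 4 called genes with the smallest p-values, or the 2 smallest where none was called. At this depth 3 counts equal 0.130 to 0.164 CPM. No libraries of a group agreed within sampling noise (chi-square per degree of freedom at least 5.38). Each library is a separate mouse per the labels' protocols.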

Additional observations from a re-analysis of the deposited data

Results flagged for a closer look

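In 35 values of the 5 libraries labelled KO, the gap of the extreme library to its neighbour was compared with 0.71 of the group's range, and 7 passed, where chance gives about 1.75. Among genes, Hyou1 in KO 3 was low, at a log2 CPM of 6.22 with the next library at 6.69, a gap of 0.740 of the range. Os9 in KO 3 was low as well, at 6.58 against 7.25 (0.857 of the range). Edem2 in KO 2 was low, at 4.30 against 4.85 (0.863). None of the 10 ER stress genes passed this limit. Among marker sums, lens in KO 3 was high (0.996 of the range), as were ganglion cell markers in KO 2 (1170 CPM against 935, 0.813), red blood cell markers in KO 2 (60.7 CPM against 25.0, 0.856) and pigment epithelium markers in KO 6 (116 CPM against 78.9, 0.810). The part of the lens markers of KO 3 in its low Hyou1 and Os9 was not tested.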

How the results depend on the processing

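The edgeR count over all genes was 1529, of the ER stress genes 1 (Eif2ak3) and of the other lists 10. The counts were 3127 and 3 with DESeq2 (the lists' count stayed within 1.5 times), and 8248, 8 and 30 with voom, where 49.5% of calls were higher, against 62.5%. Library size alone gave 0 ER stress genes and 5 list genes, with 41.8% of all calls higher, no filter 0 and 6, length offsets 0 ER stress genes, and GC offsets 5 list genes. Without 1 library or 2 KO libraries, the counts ranged from 118 to 8416 over all genes, from 0 to 7 for the ER stress genes and from 0 to 31 for the lists; 52.0% of the 8416 calls were higher. Without KO 4, KO 5 and KO 6 they were 180, 0 and 0. The median log2 fold change of the ER stress genes stayed between 0.13 and 0.26 in all fits run. Both groups have libraries numbered 2 and 3, by library name only; the differences between libraries 2 and 3 correlated at -0.19 between the groups, so nothing shows that they pair. The fit of these 4 libraries with the replicate block called 52 genes, 0 ER stress genes and 0 list genes, against 14, 0 and 0 with no block. The crossed pairing, added after seeing the data, called 527, 0 and 3. Among the named genes, signs turned for Ern1 and Ddit3 only: Ern1 was at -0.01 without KO 4, KO 5 and KO 6, -0.01 with the block, -0.01 without it and -0.02 with the crossed pairing. Ddit3 was at -0.05, -0.01, -0.02 and -0.01 in those fits, and between -0.02 and 0.12 without 1 library or 2 KO libraries. The mitochondrial difference ranged from -3.65 to -2.77 percentage points without 1 library, with exact permutation p-values of 0.0571 to 0.0952, the smallest that so few libraries allow. The cause of these changes was not tested. At 69 counts, Trib3 has the least depth of the members.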
